A study of Mus musculus with 21 samples.

Results

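Wnt ligands, their receptors and their modulators were followed through the mouse notochord lineage. The members are the 52 of 23983 genes in the deposited expression table whose symbols are Wnt, Fzd, Dkk, Sfrp or Rspo with a number, together with Axin2, Lef1, Tcf7, Lrp5, Lrp6, Notum, Wif1, Nkd1, Nkd2, Porcn and Wls. They comprise 19 ligands, 12 receptors, 2 genes of ligand secretion, 4 R-spondins, 10 secreted inhibitors and 5 feedback or nuclear genes. Expression was measured by RNA-seq in 9 libraries, 1 per condition, so that every difference given here describes these libraries and carries no replicate error. Binding of T (brachyury) and Foxa2, transcription factors that notochord cells co-express, was measured by ChIP-seq with 1 library each. The other 10 of the 21 samples were not used here.

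Embryonic cells carried the BAC reporters T::H2B-Venus, Noto::H2B-mCherry and Foxa2::H2B-mTurquoise in F1G4 (C57BL/6N x SV129) embryonic stem cells, from which the embryos were derived. Notochord progenitors (NotoPs) were T+/Noto+/Foxa2+ cells sorted from caudal ends at E8.5 (Theiler stage 12) and E9.5 (Theiler stage 16). Mesoderm progenitors (MPs) were the T+/Noto-/Foxa2- cells of the same region, and trunk notochord cells were T+/Noto+/Foxa2+ cells from the trunk. For both MP libraries the study lists a T-high gate, against T+ for NotoPs, and this cannot be told apart from cell type. The study's methods list a Foxa2-high gate for both trunk libraries and for E9.5 NotoPs but Foxa2+ for E8.5 NotoPs, and embryos of a wider range of somite numbers for each trunk library. The trunk and NotoP libraries therefore differ in region, in somite range and, at E8.5, in gate, as the NotoP stages also differ in gate, and these cannot be told apart. Embryos were pooled before sorting. Cultured cells came from a F1G4 line with TRE::Foxa2-IRES-EGFP at Rosa26 and the BACs T::H2B-mCherry-T2A-irTA and Noto::H2B-mTurquoise, so that doxycycline switches on transgenic Foxa2 in cells with active T regulatory sequence. All 3 cultures received 10 ng/ml bFGF and CHIR99021, an inhibitor of the kinase GSK3 that activates the canonical Wnt pathway from within the cell. NMPdiff cells (neuromesodermal progenitor-like) had CHIR99021 at 5 µM on days 2 to 3, whereas MPdiff and NotoPdiff cells had it on days 2 to 4. NotoPdiff cells also had 1 ng/ml doxycycline on days 2 to 4 and were sorted as Noto+/T+, whereas NMPdiff and MPdiff cells were sorted as T+/Noto-. ChIP-seq used unsorted day 4 cultures enriched for NotoPdiff cells. Embryonic and cultured libraries were run on different sequencing instruments, and their levels are therefore set side by side without ratios.

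Wnt ligands are lipid-modified by Porcn and carried to the cell surface by Wls. In the canonical branch they engage a Frizzled (Fzd) receptor and the co-receptor Lrp5 or Lrp6, which stabilises beta-catenin and lets it act with Lef1, Tcf7 and related DNA-binding partners on target genes. Axin2, Nkd1, Nkd2, Notum and Dkk1 are targets in many tissues and dampen the pathway in turn, while R-spondins prolong receptor life at the surface. Wnt3a maintains axial progenitors in the caudal embryo, and Wnt5a and Wnt5b act mainly through beta-catenin-independent branches that guide cell movement.

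T and Foxa2 peaks overlapped within 50 kb of the start of 4 members, Fzd6, Lef1, Wnt5b and Wnt8b, which is 7.69% of the 52, against a background of 4.75% of 19629 protein-coding genes. The windows of 75 bases to either side of the summits of Fzd6, Lef1 and Wnt5b are printed because both factors had a peak there. Wnt8b stayed at or below 1.06 FPKM (fragments per kilobase of transcript, scaled to the size of the library) in all 9 libraries and is not shown. Rspo3 is shown for the T peak with the largest fold enrichment near any member, and Sfrp5 because its T peak was among the 5 largest. Its repeated T-box matches were seen afterwards. Sequences are the plus strand of mm10, 5′ to 3′, and capitals mark exact matches on either strand to AGGTGTG (T-box), TGTTTAC (forkhead), CTTTGAT or CTTTGAA (TCF/LEF), with no other letters searched.
Fzd6 T summit, chr15:39018779-39018929: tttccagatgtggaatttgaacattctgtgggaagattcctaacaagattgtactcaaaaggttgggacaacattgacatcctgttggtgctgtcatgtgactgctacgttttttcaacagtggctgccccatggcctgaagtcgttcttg
Fzd6 Foxa2 summit, chr15:39018885-39019035: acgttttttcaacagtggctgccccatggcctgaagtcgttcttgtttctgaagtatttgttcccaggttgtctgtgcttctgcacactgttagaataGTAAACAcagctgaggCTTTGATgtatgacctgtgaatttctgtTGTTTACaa
Lef1 T summit, chr3:131153884-131154034: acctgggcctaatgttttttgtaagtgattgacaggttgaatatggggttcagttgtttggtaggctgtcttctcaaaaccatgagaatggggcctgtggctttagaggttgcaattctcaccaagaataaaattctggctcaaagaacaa
Lef1 Foxa2 summit, chr3:131153764-131153914: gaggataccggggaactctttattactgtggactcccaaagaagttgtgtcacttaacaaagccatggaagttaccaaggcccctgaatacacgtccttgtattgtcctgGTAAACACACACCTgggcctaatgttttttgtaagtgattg
Wnt5b T summit, chr6:119567163-119567313: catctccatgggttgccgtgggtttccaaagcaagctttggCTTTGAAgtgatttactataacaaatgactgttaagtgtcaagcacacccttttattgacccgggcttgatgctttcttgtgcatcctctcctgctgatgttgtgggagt
Rspo3 T summit, chr10:29554444-29554594: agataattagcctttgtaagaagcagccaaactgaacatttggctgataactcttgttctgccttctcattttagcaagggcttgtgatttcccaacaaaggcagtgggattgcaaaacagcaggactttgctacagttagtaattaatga
Sfrp5 T summit, chr19:42220184-42220334: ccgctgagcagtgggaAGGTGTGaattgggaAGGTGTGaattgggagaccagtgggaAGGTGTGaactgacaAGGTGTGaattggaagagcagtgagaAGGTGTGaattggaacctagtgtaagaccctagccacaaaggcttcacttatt

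In Fzd6, the T and Foxa2 summits lay 106 bp apart in an intron, 12820 and 12926 bp downstream of the gene start. The window of the Foxa2 summit holds 2 forkhead matches and 1 CTTTGAT between them, whereas that of the T summit holds none of the 4 motifs. At least 2 forkhead matches occur in 1.07% of 22680 Foxa2 windows. In Lef1, the summits were 120 bp apart in an intron 43488 bp (T) downstream of the start, and the Foxa2 window has a forkhead match and a T-box match side by side. Such an abutting pair was found in 6 of 22680 Foxa2 windows. The Wnt5b summits were 14 bp apart between genes, 22891 bp upstream for T, with 1 CTTTGAA. The Sfrp5 window, 18007 bp upstream of the gene, carries 5 T-box matches in one orientation, and 5 or more were present in 2 of 6871 T windows. These matches were singled out after their letters were seen, and a match is not evidence of a bound site. The Rspo3 window holds none of the 4 motifs.

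Over all members, the numbers of windows with a motif were small. AGGTGTG was found in 3 of 26 T windows (11.5%) against 6.43% of all T windows, TGTTTAC in 8 of 55 Foxa2 windows (14.5%) against 12.2%, and CTTTGAT or CTTTGAA in 3 of 26 T windows (11.5%) against 12.4%. Of 34 members matched in the RefSeq promoter table (GRCm38.p6, 250 bases before to 50 after the start), Wnt2b, Wnt5b, Lef1 and Nkd1 had AGGTGTG (11.8%, against 6.72% of 27025 genes), and Wnt5b, Wnt11 and Dkk1 had CTTTGAT or CTTTGAA (8.82%, against 9.88%). Tcf7 was the member with TGTTTAC in that window (2.94%, against 4.05%).

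The sorted populations were checked against the genes that define them. Noto stood at 152 and 164 FPKM in NotoPs at E8.5 and E9.5, at 0 in both MP libraries and at 27.5 and 20.8 in trunk notochord. Foxa2 stood at 57.0 and 45.6 FPKM in NotoPs and at 1.25 and 0.860 in MPs, and its 95.5 FPKM in NotoPdiff cells include the transgene. T was present in all 9 libraries, between 25.8 FPKM in MPdiff and 909 in E8.5 NotoPs. The study's methods list fewer mapped reads for the E8.5 MP library and both trunk libraries than for the other embryonic ones. The E8.5 MP library, made from the fewest cells, listed 58.1% of genes at 0 (31.6% to 51.7% elsewhere) and also 59 of the 5483 genes that reached 5 FPKM in each remaining library, compared with 38 for E9.5 trunk notochord, 8 for E8.5 trunk notochord and at most 1 for the others. It also listed 27 members at 0, against 3 to 25 elsewhere. A 0 there or in a trunk library may be a missed gene, and no fold is given against a library at 0.

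**Figure D1:**
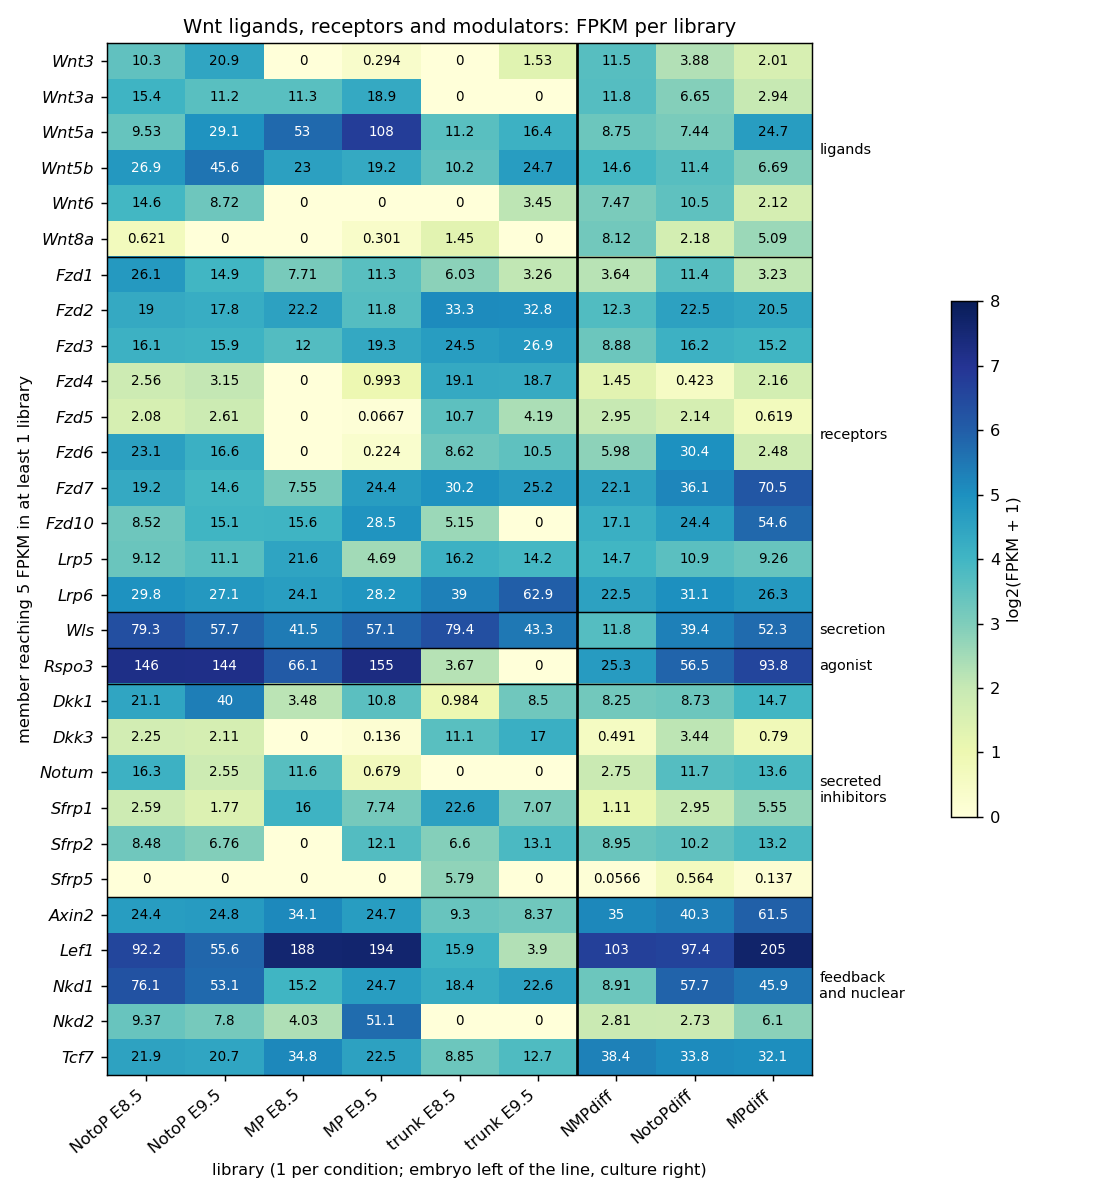
Levels of the 29 members that reached 5 FPKM in at least 1 of the 9 libraries, in rows by role and in columns by library. Each cell prints FPKM and is coloured by log2(FPKM + 1); Rspo3 and Lef1 reach the highest levels and drop to 3.67 and 15.9 FPKM in E8.5 trunk notochord.

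Of the 52 members, 29 reached 5 FPKM in at least 1 library and are described with all 9 values. The other 23 stayed below that level, and 6 of them stayed below 1 FPKM throughout, among them Wnt1, which was listed at 0 in every library. All members together summed to between 391 FPKM in E9.5 trunk notochord and 847 FPKM in E9.5 MPs. FPKM is per transcript length, and levels of different genes are compared on that scale alone.

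Among the ligands, the most abundant in each library was one of the noncanonical pair Wnt5a and Wnt5b, and their order differed between progenitor types. The other member of the pair came next in 6 of 9 libraries, whereas Wnt3a was next in E8.5 NotoPs and NMPdiff and Wnt6 in NotoPdiff cells. Wnt5b stood at 26.9 and 45.6 FPKM in NotoPs at E8.5 and E9.5, 23.0 and 19.2 in MPs, 10.2 and 24.7 in trunk notochord, and 14.6, 11.4 and 6.69 in NMPdiff, NotoPdiff and MPdiff cells. Wnt5a stood at 9.53 and 29.1 FPKM in NotoPs, 53.05 and 108 in MPs, 11.2 and 16.4 in trunk notochord, and 8.75, 7.44 and 24.7 in NMPdiff, NotoPdiff and MPdiff cells. Wnt5b was therefore above Wnt5a in both NotoP libraries, NMPdiff, NotoPdiff and E9.5 trunk notochord, and Wnt5a was above Wnt5b in both MP libraries, MPdiff and E8.5 trunk notochord, where they stood closest together. Wnt5a made up 58.0% and 71.5% of the summed FPKM of the 19 ligands in MPs at E8.5 and E9.5, and Wnt5b 34.3% and 38.6% in NotoPs.

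Wnt3, Wnt3a and Wnt6, ligands of the canonical branch in many assays, were each higher in NotoPs than in trunk notochord. Wnt3 stood at 10.3 and 20.9 FPKM in NotoPs, 0 and 0.294 in MPs, 0 and 1.53 in trunk notochord, and 11.5, 3.88 and 2.01 in NMPdiff, NotoPdiff and MPdiff cells. Wnt6 stood at 14.6 and 8.72 FPKM in NotoPs, 0 in both MP libraries, 0 and 3.45 in trunk notochord, and 7.47, 10.5 and 2.12 in NMPdiff, NotoPdiff and MPdiff cells. Among the embryonic progenitors, Wnt3 and Wnt6 thus had signal in NotoPs and little or none in MPs, where a 0 at E8.5 may be a missed gene. In culture both were also present in NMPdiff cells, where Wnt3 was highest of the cultures. Wnt3a did not separate the progenitors: it stood at 15.4 and 11.2 FPKM in NotoPs and 11.3 and 18.9 in MPs, was listed at 0 in both trunk notochord libraries, and stood at 11.8, 6.65 and 2.94 in NMPdiff, NotoPdiff and MPdiff cells. Wnt8a, a ligand of early caudal development, reached 8.12, 2.18 and 5.09 FPKM in NMPdiff, NotoPdiff and MPdiff cells but lay between 0 and 1.45 in the 6 embryonic libraries. The 13 remaining ligands stayed at or below 3.53 FPKM.

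Among the receptors, Fzd6, which is known for planar cell polarity, separated NotoPs from MPs most sharply. Fzd6 stood at 23.1 and 16.6 FPKM in NotoPs, 0 and 0.224 in MPs, 8.62 and 10.5 in trunk notochord, and 5.98, 30.4 and 2.48 in NMPdiff, NotoPdiff and MPdiff cells. Fzd5 also separated them but was highest in E8.5 trunk notochord, with 2.08 and 2.61 FPKM in NotoPs, 0 and 0.0667 in MPs, 10.7 and 4.19 in trunk notochord, and 2.95, 2.14 and 0.619 in the cultures in that order. Fzd4, a receptor of vascular development, was highest in trunk notochord: it stood at 2.56 and 3.15 FPKM in NotoPs, 0 and 0.993 in MPs, 19.1 and 18.7 in trunk notochord, and 1.45, 0.423 and 2.16 in NMPdiff, NotoPdiff and MPdiff cells. Fzd4 values of the 2 trunk notochord libraries lay above all 7 others.

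Fzd1 and Fzd10, receptors of the canonical branch, were lower in the trunk. Fzd1 stood at 26.1 and 14.9 FPKM in NotoPs, 7.71 and 11.3 in MPs, 6.03 and 3.26 in trunk notochord, and 3.64, 11.4 and 3.23 in NMPdiff, NotoPdiff and MPdiff cells. Fzd10 stood at 8.52 and 15.1 FPKM in NotoPs, 15.6 and 28.5 in MPs, 5.15 and 0 in trunk notochord, and 17.1, 24.4 and 54.6 in the cultures. For Fzd10, MPs lay above NotoPs at each stage and MPdiff above NotoPdiff.

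Fzd2, Fzd3 and Fzd7 and the co-receptors Lrp5 and Lrp6 were present in every library. Fzd7 ranged from 7.55 FPKM in E8.5 MPs to 70.5 in MPdiff, with 19.2 and 14.6 in NotoPs, 24.4 in E9.5 MPs, 30.2 and 25.2 in trunk notochord, 22.1 in NMPdiff and 36.1 in NotoPdiff. Fzd2 stood at 18.97 and 17.8 FPKM in NotoPs, 22.2 and 11.8 in MPs, 33.3 and 32.8 in trunk notochord, and 12.3, 22.5 and 20.5 in NMPdiff, NotoPdiff and MPdiff cells. Fzd3 stood at 16.1 and 15.9 FPKM in NotoPs, 12.0 and 19.3 in MPs, 24.5 and 26.9 in trunk notochord, and 8.88, 16.2 and 15.2 in the cultures. Both were highest in the 2 trunk notochord libraries. Lrp6 lay between 22.5 and 39.0 FPKM in 8 libraries and at 62.9 in E9.5 trunk notochord, with 29.8 and 27.1 in NotoPs, 24.1 and 28.2 in MPs and 22.5, 31.1 and 26.3 in the cultures. Lrp5 stood at 9.12 and 11.1 FPKM in NotoPs, 21.6 and 4.69 in MPs, 16.2 and 14.2 in trunk notochord, and 14.7, 10.9 and 9.26 in the cultures. The summed FPKM of the 10 Fzd genes was 118 and 102 in NotoPs, 66.6 and 97.7 in MPs and 139 and 124 in trunk notochord. Summed Fzd receptor RNA was thus not lower in trunk notochord than in NotoPs, although Fzd1, Fzd6, Fzd10 and several ligands were.

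For ligand secretion, Wls stood at 79.3 and 57.7 FPKM in NotoPs, 41.5 and 57.1 in MPs, 79.4 and 43.3 in trunk notochord, and 11.8, 39.4 and 52.3 in NMPdiff, NotoPdiff and MPdiff cells, so that NMPdiff was the low library. Rspo3, the R-spondin of the caudal embryo, was the most abundant extracellular member in progenitors. Rspo3 stood at 146 and 144 FPKM in NotoPs, 66.1 and 155 in MPs, 3.67 and 0 in trunk notochord, and 25.3, 56.5 and 93.8 in NMPdiff, NotoPdiff and MPdiff cells. Both trunk notochord libraries lay below the lowest of the other 7. Rspo1, Rspo2 and Rspo4 stayed at or below 4.91 FPKM.

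Secreted inhibitors differed in where they were highest. Dkk1, which blocks Lrp5 and Lrp6, stood at 21.1 and 40.03 FPKM in NotoPs, 3.48 and 10.8 in MPs, 0.984 and 8.5 in trunk notochord, and 8.25, 8.73 and 14.7 in NMPdiff, NotoPdiff and MPdiff cells. Notum, an extracellular enzyme that removes the lipid from Wnt ligands, stood at 16.3 and 2.55 FPKM in NotoPs, 11.6 and 0.679 in MPs, 0 in both trunk notochord libraries, and 2.75, 11.7 and 13.6 in the cultures. Dkk1 was therefore highest in NotoPs at each stage, and Notum was higher at E8.5 than at E9.5 in both progenitor types. Dkk3, a divergent member of its family, stood at 2.25 and 2.11 FPKM in NotoPs, 0 and 0.136 in MPs, 11.1 and 17.0 in trunk notochord, and 0.491, 3.44 and 0.790 in the cultures. Sfrp1, a soluble Frizzled-related protein that binds Wnt ligands, stood at 2.59 and 1.77 FPKM in NotoPs, 16.03 and 7.74 in MPs, 22.6 and 7.07 in trunk notochord, and 1.11, 2.95 and 5.55 in the cultures. Dkk3 was thus a trunk notochord gene among these libraries, and Sfrp1 was lowest in NotoPs among embryonic cells. Sfrp2 stood at 8.48 and 6.76 FPKM in NotoPs, 0 and 12.1 in MPs, 6.60 and 13.1 in trunk notochord, and 8.95, 10.2 and 13.2 in the cultures. Sfrp5 was detected in the embryo at E8.5 in trunk notochord alone, at 5.79 FPKM, was listed at 0 in the other 5 embryonic libraries, and lay between 0.0566 and 0.564 in the cultures.

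The feedback and nuclear genes were expressed throughout the progenitors. Lef1, a DNA-binding partner of beta-catenin, stood at 92.2 and 55.6 FPKM in NotoPs, 188 and 194 in MPs, 15.9 and 3.90 in trunk notochord, and 103, 97.4 and 205 in NMPdiff, NotoPdiff and MPdiff cells. Tcf7, its relative, stood at 21.9 and 20.7 FPKM in NotoPs, 34.8 and 22.5 in MPs, 8.85 and 12.7 in trunk notochord, and 38.4, 33.8 and 32.1 in the cultures. Axin2, a widely used readout of the canonical branch, stood at 24.4 and 24.8 FPKM in NotoPs, 34.1 and 24.7 in MPs, 9.30 and 8.37 in trunk notochord, and 35.0, 40.3 and 61.5 in the cultures. For Lef1, Tcf7 and Axin2, both trunk notochord libraries lay below the 7 others. Nkd1, a feedback inhibitor that acts on Dishevelled, stood at 76.1 and 53.1 FPKM in NotoPs, 15.2 and 24.7 in MPs, 18.4 and 22.6 in trunk notochord, and 8.91, 57.7 and 45.9 in the cultures. Nkd2, its paralogue, stood at 9.37 and 7.795 FPKM in NotoPs, 4.03 and 51.1 in MPs, 0 in both trunk notochord libraries, and 2.81, 2.73 and 6.10 in the cultures. Nkd1 was above MPs in NotoPs at each stage, whereas Nkd2 was above MPs at E8.5 and below them at E9.5.

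To ask which members distinguish notochord from mesoderm progenitors, NotoPs were compared with MPs at both stages. NotoPs had more RNA of the ligands Wnt3 and Wnt6, the receptors Fzd5 and Fzd6 and the inhibitor Dkk1, and less of the ligand Wnt5a and the inhibitor Sfrp1. Members were called when at least 3-fold apart in the same direction at both stages on the log2(FPKM + 1) scale, which understates changes of weakly expressed genes. These 5 of 52 members higher in NotoPs (9.62%) stand beside a background of 1.31% of 23983 genes, and the 2 lower members (3.85%) beside 0.238%. Of the 31 members with a mean of at least 1 FPKM, the same 5 and 2 were called, against 2.61% and 0.478% of 11922 genes with such a mean. With a pseudocount of 5 FPKM in place of 1, Wnt3, Fzd6 and Wnt5a kept their calls and Wnt6, Fzd5, Dkk1 and Sfrp1 did not.

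For Dkk1 the log2 ratio of NotoPs over MPs was 2.30 at E8.5 and 1.79 at E9.5, for Wnt5a -2.36 and -1.86, and for Sfrp1 -2.25 and -1.66. For Wnt3, Fzd5 and Fzd6 the E8.5 MP library was listed at 0, and at E9.5 the log2 ratios were 4.08, 1.76 and 3.84. Wnt6 was listed at 0 in both MP libraries. The 5 higher members were also the 5 past 3-fold at E9.5 without the E8.5 libraries. A member called at both stages is past 3-fold at E9.5 by the rule, so this shows only that E9.5 alone added no higher member. The share of all genes past that limit was larger at E9.5 alone than the 1.31% at both stages. At E9.5 alone, however, 5 members were lower, since Wnt11, Lef1 and Nkd2 joined Wnt5a and Sfrp1, with 1.11% of all genes past the same limit. Over the 31 members with a mean of at least 1 FPKM the median log2 ratio was 0.46 at E8.5 and 0.01 at E9.5, against 0.10 and 0.02 over the 11922 genes.

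As a sum, gut endoderm genes moved with this contrast. The 6 fixed markers (Sox17, Epcam, Cldn6, Trh, Krt8 and Krt18) summed to 627 and 228 FPKM in NotoPs and 83.5 and 5.79 in MPs, led by Krt8 and Krt18, which notochord also expresses. Sox17, the defining endoderm gene of the list, stood at 3.58 FPKM in E8.5 NotoPs and 5.37 in E8.5 MPs and at 0 in both E9.5 libraries. Epcam stood at 18.3 and 8.12 FPKM in NotoPs and 22.7 and 0.444 in MPs. Cldn6 stood at 47.0 and 23.9 FPKM in NotoPs and 8.62 and 2.13 in MPs, and Trh at 4.09 and 0.465 against 0 and 0.330. At E8.5, Sox17 and Epcam were thus lower in NotoPs than in MPs, whereas Cldn6, Trh, Krt8 and Krt18 were higher. The part of such cells in the values of either stage was not tested. In bulk samples, fewer cells of a type and less RNA per cell cannot be told apart.

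**Figure D2:**
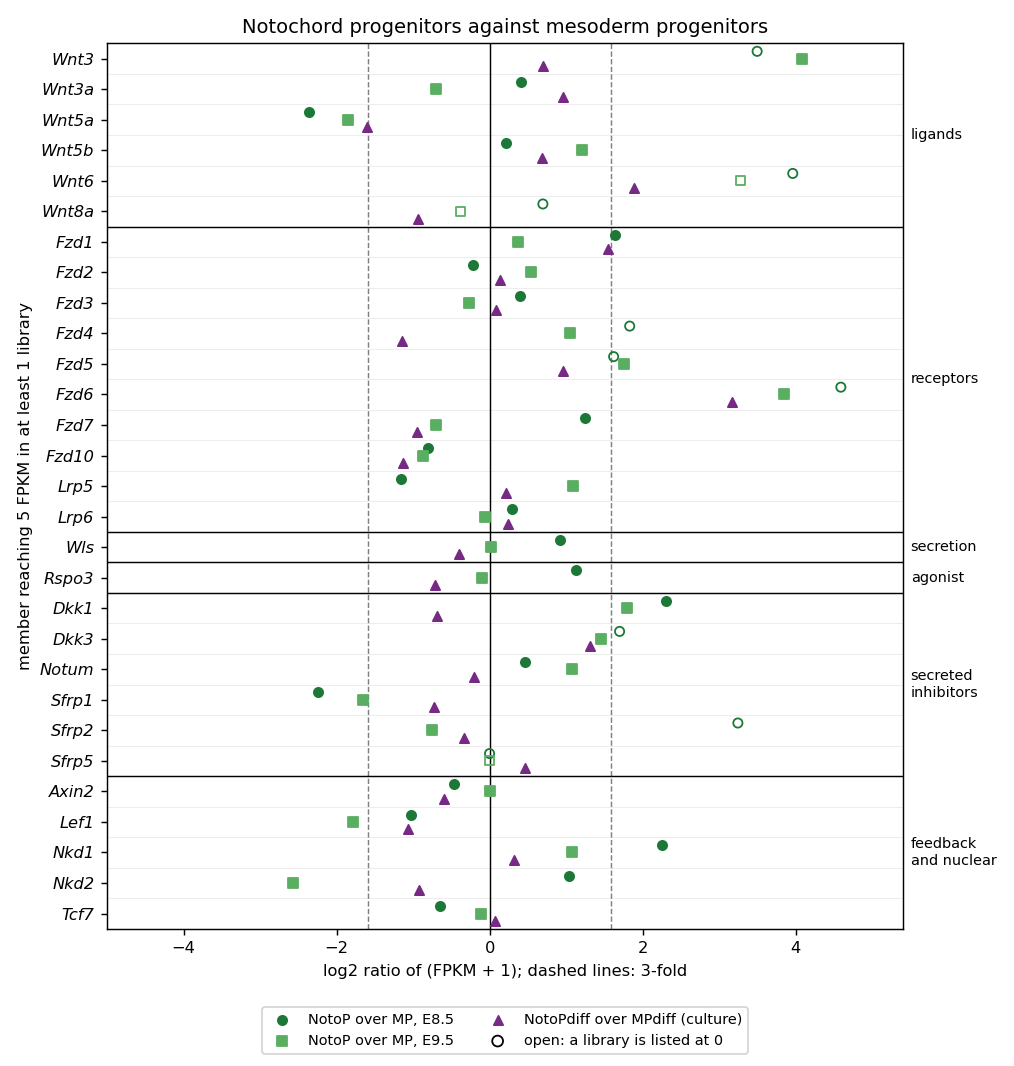
Log2 ratios of (FPKM + 1) for NotoPs over MPs at E8.5 (circles) and E9.5 (squares) and for NotoPdiff over MPdiff cells (triangles), for the 29 members that reached 5 FPKM, with open symbols where a library is listed at 0 and dashed lines at 3-fold. Fzd6 and Wnt6 lie past the upper line and Wnt5a past the lower line in all 3 comparisons.

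The same contrast in culture, NotoPdiff over MPdiff cells, gave 3 calls. Each of these members was also called in the embryo, where Wnt6 was listed at 0 in both MP libraries. How many of all genes carry both calls was not counted, so this overlap is given as values alone. Wnt6 and Fzd6 were higher in NotoPdiff cells, with log2 ratios of 1.89 and 3.17, and Wnt5a was lower, at -1.61. The 2 higher members (3.85%) stand beside a background of 1.55% of all genes and the 1 lower (1.92%) beside 0.442%. Wnt3 and Fzd5 were higher at 0.70 and 0.95 but below 3-fold, and Sfrp1 was lower at -0.73. The Dkk1 difference had the opposite sign: its log2 ratio was -0.69, with 8.73 FPKM in NotoPdiff and 14.7 in MPdiff cells. The median log2 ratio was 0.07 over the 31 members with a mean of at least 1 FPKM and 0.02 over the 11922 genes with such a mean. The difference between embryo and culture was not tested for any of these genes. With a pseudocount of 5 FPKM, Fzd6 alone of the 3 kept its call. The gut markers summed to 629 FPKM in NotoPdiff and 42.0 in MPdiff cells, with Sox17 at 7.46 and 0.545, and their part in the differences was not tested.

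Relative to NMPdiff cells, NotoPdiff and MPdiff cells both had more RNA of Wls, Notum and Nkd1. NotoPdiff cells were past 3-fold higher for 5 members (9.62%, background 1.31%), with log2 ratios of 2.17 for Fzd6, 1.66 for Wls, 1.76 for Notum, 2.57 for Nkd1 and 1.70 for Wnt7a, which reached 2.41 FPKM. No member was past 3-fold lower in NotoPdiff than in NMPdiff cells (0 of 52, background 0.796%). MPdiff cells were higher for 7 members (13.5%, background 0.901%), with log2 ratios of 2.06 for Wls, 1.96 for Notum, 2.24 for Nkd1, 1.85 for Rspo3, 1.63 for Fzd7, 1.62 for Fzd10 and 1.63 for Sfrp1. They were lower for Wnt3 and Wnt3a, at -2.05 and -1.70 (2 members, 3.85%, background 1.48%). These comparisons share libraries with each other, and Nanog, a gene of pluripotent cells, stood at 21.8 FPKM in NMPdiff, 1.54 in NotoPdiff and 0.216 in MPdiff cells, whose part in the differences was not tested. CHIR99021 treatment differed in length as well, and its effect cannot be told apart from that of cell state.

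To follow members from progenitor to differentiated notochord, trunk notochord was compared with NotoPs. At both stages trunk notochord had far less Rspo3 and Lef1 RNA, and less Wnt3, Wnt3a, Fzd1, Dkk1, Notum and Nkd2, while the receptor Fzd4 and Dkk3 were higher. These 8 lower members (15.4%) stand beside a background of 0.992% of all genes, and the 2 higher members (3.85%) beside 0.88%. Of the 31 members with a mean of at least 1 FPKM the same 8 were lower, against 1.97% of the 11922 genes. With a pseudocount of 5 FPKM, Wnt3, Wnt3a, Rspo3, Dkk1 and Lef1 kept their calls and the other 5 of the 10 did not. The median log2 ratio of those 31 was -0.32 at E8.5 and -0.66 at E9.5, against 0.00 and -0.01 over the genes with such a mean.

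Lef1 differed by -2.47 at E8.5 and -3.53 at E9.5 on the log2 scale, Fzd1 by -1.95 and -1.90, and Dkk1 by -3.48 and -2.11. Rspo3 differed by -4.97 at E8.5 and was listed at 0 in trunk notochord at E9.5. Wnt3a, Notum and Nkd2 were listed at 0 in both trunk notochord libraries, and Wnt3 was listed at 0 at E8.5 and differed by -3.11 at E9.5. A 0 in these libraries may be a missed gene, and Notum stood at only 2.55 FPKM in E9.5 NotoPs. Fzd4 was higher by 2.50 and 2.25 and Dkk3 by 1.90 and 2.53. Axin2 differed by -1.3 and -1.46 and did not reach 3-fold, nor did Tcf7 at -1.22 and -0.66, and Nkd1 passed it at E8.5 alone. Wnt5a, Wnt5b, Wls, Lrp5, Lrp6, Fzd2, Fzd3 and Fzd7 stayed within 3-fold at both stages.

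As a sum, markers of mesoderm progenitors moved with these members. Tbx6, Msgn1, Pcdh8, Osr1, Dll1 and Hes7 summed to 194 and 128 FPKM in NotoPs and to 9.85 and 4.48 in trunk notochord. Of these, Tbx6, Msgn1 and Hes7 were at 0 in both trunk libraries. Pcdh8 went the other way, at 3.55 and 4.48 FPKM in trunk notochord against 1.27 and 0.162 in NotoPs. Osr1 was also higher in trunk notochord at E8.5, at 4.37 against 2.81. In MPs, which are Noto-, the same list summed to 184 and 333 FPKM. Rspo3, Lef1, Wnt3a, Nkd2, Fzd1, Dkk1 and Notum were also expressed in MPs, Notum at 11.6 and 0.679 FPKM. Wnt3 was at most 0.294 FPKM in MPs. The part of mesoderm progenitors in the NotoP levels of the members lower in trunk notochord was not tested. Summed gut markers were also higher in trunk notochord, at 1342 and 669 FPKM against 627 and 228 in NotoPs, led by Krt8 and Krt18. Cldn6 stood at 29.2 and 26.8 FPKM in trunk notochord against 47.0 and 23.9 in NotoPs. Epcam stood at 25.6 and 2.31 against 18.3 and 8.12, and Trh at 19.1 and 0 against 4.09 and 0.465. Sox17 was at 0 in both trunk libraries, against 3.58 and 0 in NotoPs. Somite markers summed to 59.4 and 23.4 FPKM in trunk notochord against 21.7 and 20.9 in NotoPs, with Pax3 at 9.90 against 0.279 and Tcf15 at 11.8 against 1.0 at E8.5. Neural markers summed to 39.8 and 16.4 against 21.2 and 11.6. At E8.5, Nkx6-1 (14.7 against 0.525), Sox1 and Sox3 were higher, whereas Sox2 (14.3 against 17.3) and Pax6 (0 against 1.10) were lower. At E9.5, Sox2, Sox1 and Nkx6-1 were higher and Sox3 was lower, at 0 against 0.624. The connective tissue gene Col1a2 stood at 29.5 and 20.3 FPKM in trunk notochord and 2.02 and 3.76 in NotoPs. The part of such cells in the trunk values was not tested. NotoP libraries enter this comparison and the preceding one on opposite sides, and the overlap of Wnt3 and Dkk1 between them is given as values alone.

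**Figure D3:**
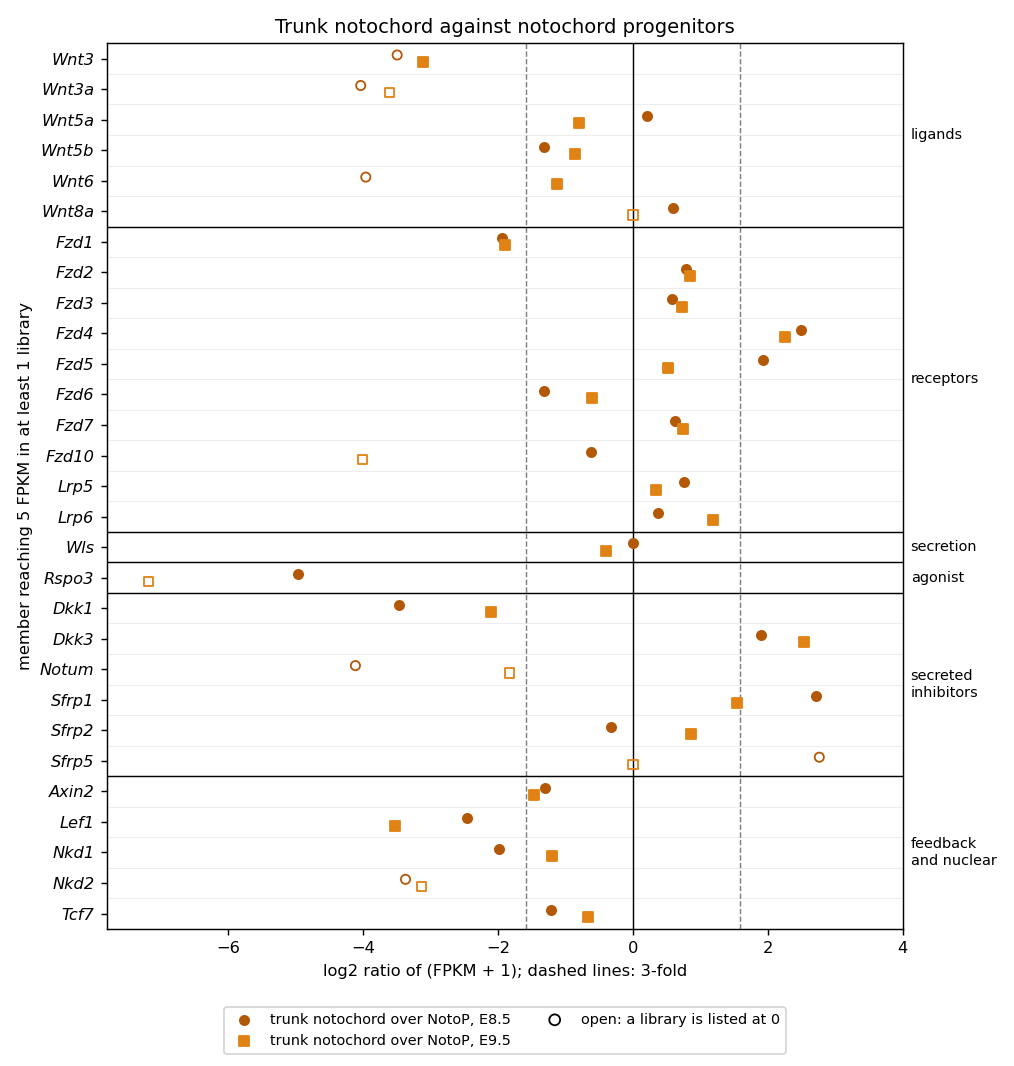
Log2 ratios of (FPKM + 1) for trunk notochord over NotoPs at E8.5 (circles) and E9.5 (squares) for the 29 members that reached 5 FPKM, with open symbols where a library is listed at 0 and dashed lines at 3-fold. Rspo3 and Lef1 lie far below the lower line and Fzd4 and Dkk3 above the upper line at both stages.

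Between E8.5 and E9.5, the NotoP values of most members differed by less than 3-fold. Dkk2 was higher at E9.5 by the 3-fold rule, at 2.61 FPKM against 0 (1 of 52, 1.92%, background 2.3%), and Notum was lower, with a log2 ratio of -2.29 (1 of 52, 1.92%, background 1.99%). Both shares lie near the background. Wnt5a differed by 1.52 in favour of E9.5, just inside the 3-fold limit of 1.58 on the log2 scale. The median log2 ratio was -0.08 over the 31 members with a mean of at least 1 FPKM and 0 over the 11922 genes with such a mean.

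Other genes of the pathway were taken from a list of 47 transducers, nuclear partners, further receptors, inhibitors and target genes. Ctnnb1, which encodes beta-catenin, lay between 175 and 271 FPKM in all 9 libraries. In NotoPs over MPs at both stages, 1 of 47 was higher (2.13%, background 1.31%), the corepressor Tle2 (10.7 and 3.55 FPKM in NotoPs, 0 and 0.168 in MPs), and 1 was lower (2.13%, background 0.238%), Cdx4, a posterior patterning gene (26.01 and 32.7 against 150 and 107). In trunk notochord over NotoPs, 7 of 47 were lower (14.9%, background 0.992%) and 1 was higher (2.13%, background 0.88%) at both stages. Those lower were Cdx2 (126 and 107 FPKM in NotoPs, 9.23 and 2.22 in trunk notochord), Cdx4 and Msgn1 (0 in both trunk libraries), Sp8 (1.96 and 0), Pygo1 (1.26 and 0), Apcdd1 (1.57 and 2.55) and the polarity receptor Ptk7 (36.7 and 48.0, against 201 and 199 in NotoPs). The inhibitor Sostdc1 was higher, at 27.6 and 55.7 FPKM in trunk notochord and 2.69 and 0.368 in NotoPs.

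In NotoPdiff over MPdiff cells, the corepressor Tle1 was higher (24.3 against 4.92 FPKM), and the secreted inhibitor Frzb (22.3 against 78.2) and Myc (4.12 against 23.97) were lower. That is 1 higher (2.13%, background 1.55%) and 2 lower (4.26%, background 0.442%) of 47. Against NMPdiff, 2 of 47 were higher in NotoPdiff cells, Tle1 and Cdx2 (4.26%, background 1.31%), and 3 lower, Ror1, Msgn1 and Myc (6.38%, background 0.796%). In MPdiff cells 3 were higher, Pygo1, Frzb and Cdx2 (6.38%, background 0.901%), and 0 lower (background 1.48%). Between NotoP stages, Cdx1 was lower at E9.5, at 1.47 FPKM against 17.8 (1 of 47, 2.13%, background 1.99%), and 0 were higher (background 2.3%). Genes of these last sentences other than Tle1, Frzb and Myc were named after their values were seen.

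Peaks near the members were then placed on the annotation. All 52 members could be located on mm10. A T peak summit lay within 50 kb of the start of 19 members (36.5%, background 26.7% of 19629 protein-coding genes), and a Foxa2 summit within 50 kb of 33 (63.5%, background 52.7%). Within 5 kb there were 3 members for T, Notum, Fzd2 and Dkk1 (5.36% of all genes have one), and 3 for Foxa2, Porcn, Lef1 and Wnt8a (8.67% of all genes), all named after their values were seen. The T peaks of Fzd2 and Notum lay 757 bp upstream and 704 bp downstream of the start and had fold enrichments of 5.08 and 4.52. The median member had 0 other protein-coding starts within 50 kb, and the median gene 2, so the windows differ in gene density. The 31 members with a mean of at least 1 FPKM included 14 with T and 23 with Foxa2 peaks, against 31.2% and 58.5% of 10979 such genes. These shares were not tested.

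The windows held 26 T peaks and 55 Foxa2 peaks, of which 16 and 41 had a member as the nearest protein-coding start. Their median fold enrichment over the ChIP background was 6.39 for T and 7.26 for Foxa2, against 7.45 and 7.19 over all 6875 and 22684 peaks, so the members' peaks were of ordinary size. Of the T peaks 5 (19.2%) overlapped a Foxa2 peak, against 20.2% of all T peaks, and 14 lay in introns and 9 between genes. Of the Foxa2 peaks 27 lay in introns and 23 between genes.

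The largest T peak stood 18652 bp upstream of Rspo3 (chr10:29553956-29554819, in an intron of the noncoding gene Gm48159), with a fold enrichment of 15.9, and 7.64% of all T peaks were larger. It was followed by Wnt8b (13.8, in an intron), Lef1 (11.5), Sfrp5 (10.4) and Wnt5b (9.73). Among Foxa2 peaks the largest was that of Fzd6 (chr15:39018653-39019241, 15.5, exceeded by 4.48% of all Foxa2 peaks). Next came a peak 7828 bp upstream of Wnt3 (chr11:103765930-103766651, 14.6), which lies between Wnt3 and the divergently placed Wnt9b, then Fzd7 (14.5, in an exon of the noncoding gene Gm26813), and Fzd10 (14.4). Wnt3 and Fzd6 were expressed in embryonic NotoPs and near 0 in MPs, and stood at 3.88 and 30.4 FPKM in NotoPdiff cells. Wnt9b, in range of the same peak as Wnt3, stayed at or below 1.05 FPKM. Wnt8b, with a large T peak of its own, stayed at or below 1.06 FPKM. A large peak was therefore found near members with and with little expression.

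**Figure D4:**
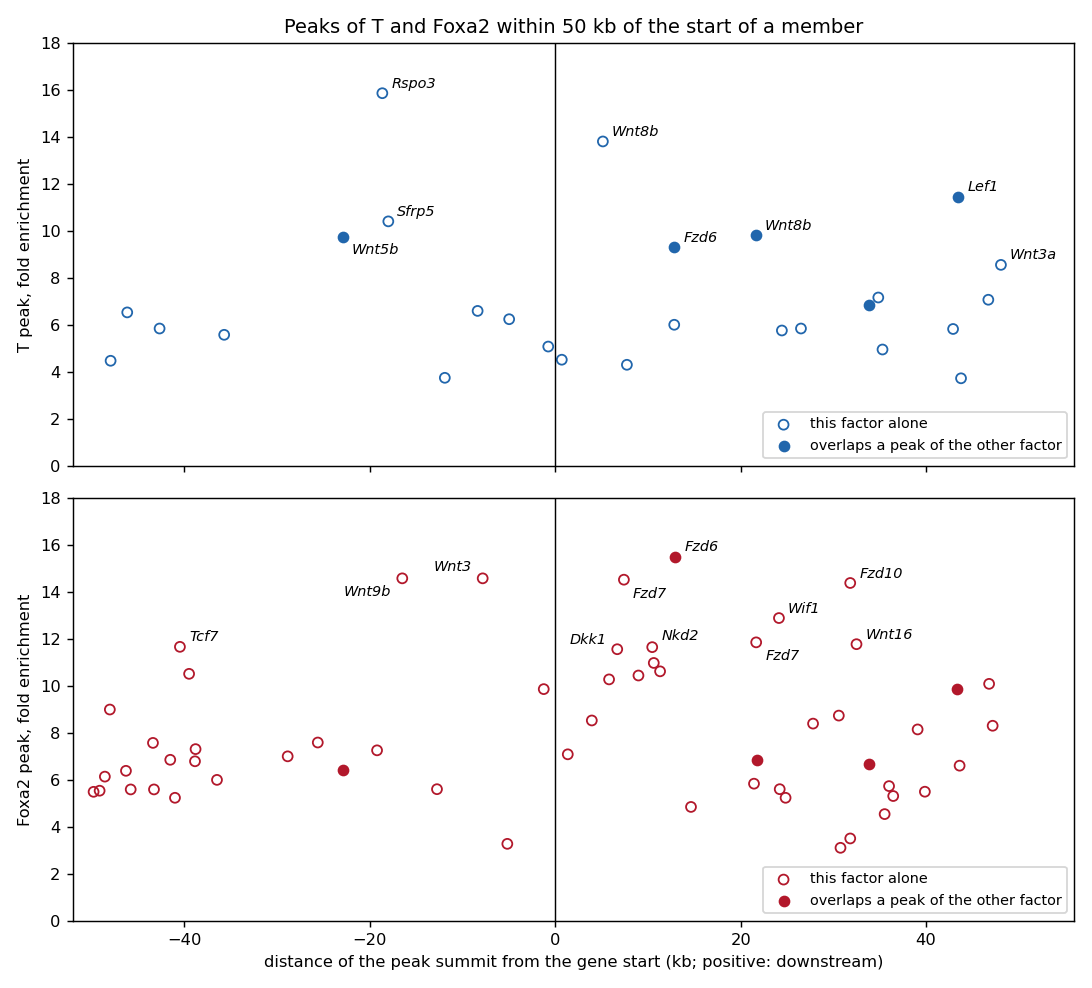
Fold enrichment of each T peak (upper panel) and Foxa2 peak (lower panel) against the distance of its summit from the start of the member in kb, positive downstream, for the 52 members. Filled points overlap a peak of the other factor, and a peak in range of more than 1 member is drawn once for each; the Rspo3 and Fzd6 points are the highest of their panels at 15.9 and 15.5.

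Members called between conditions were set beside the peaks as a description. Of the 5 members higher in NotoPs than MPs, 4 had a Foxa2 peak (Wnt3, Fzd5, Fzd6 and Dkk1) and 3 a T peak (Wnt3, Fzd6 and Dkk1), whereas 73.8% and 50.3% of the 286 located genes with the same call had one. Wnt6 had neither within 50 kb. Wnt5a, lower in NotoPs, had neither, and Sfrp1 had a T peak in an intron with a fold enrichment of 5.76. Of the 8 members lower in trunk notochord than in NotoPs, 8 had a Foxa2 peak and 6 a T peak, against 67.6% and 52.6% of the 213 located genes with that call. Fzd6 was the member called higher in NotoPs and in NotoPdiff cells that had overlapping T and Foxa2 peaks. Peaks came from cultured cells with transgenic Foxa2, and binding in the embryo was not measured here.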

How the data were processed

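The authors made strand-specific RNA-seq libraries with a low-input kit, trimmed the first bases of each read, removed duplicates by molecular identifier, aligned to mm10 (submitters' processing notes: TopHat2 2.1.1, Bowtie 1.2.2, Cufflinks 2.2.1) and deposited FPKM per RefSeq gene with bias and multi-read correction. For ChIP-seq (Bowtie 1.3.1, bedtools 2.23.0) the authors removed duplicates and deposited peaks from MACS3 3.0.0b1 at a q cutoff of 0.1, called per factor on 1 library. These files hold fold enrichment over background, the −log10 p-value and q-value and an integer score as the authors deposited them, and fold enrichment was used here. FPKM and peak files hold no read counts, so no counting interval is given, although the study lists mapped reads for the embryonic libraries.

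FPKM were compared as log2(FPKM + 1), and a 3-fold ratio was called, at both stages where there are 2. With 1 library per condition there is no replicate error and no test, and no fold is given against a library listed at 0. Members reaching 5 FPKM in at least 1 library were described in full. Pathway genes past 3-fold in both embryonic stages or in NotoPdiff over MPdiff cells were named, and peaks were named by size or when shared. Members and lists were chosen with earlier results of these data known. Gene starts came from GENCODE M21 (mm10), peaks were assigned within 50 kb of a start by their summit, and T and Foxa2 peaks sharing at least 1 bp were called shared. Printed windows are GRCm38.p6 sequence to 75 bases on either side of the summit, for shared peaks and the largest T peaks of members reaching 5 FPKM, with both summits where they lay more than 75 bp apart. The scripts (Python 3.11.15, pandas 2.3.3, NumPy 2.4.6, pysam 0.24.0, matplotlib 3.10.9) were tested on simulated data. Another pseudocount, fold, filter, scaling, single stage, window and overlap were tried. ATAC-seq and histone mark samples (10 of 21) were not used here.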

Additional observations from a re-analysis of the deposited data

Results flagged for a closer look

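Values past 2-fold in opposite directions between stages, or between embryo and culture, were set apart, and none of these differences was tested, since each condition has 1 library. For Nkd2, the log2 ratio of NotoPs over MPs was 1.04 at E8.5 and -2.57 at E9.5. For Lrp5 the same ratio was -1.16 at E8.5 and 1.09 at E9.5. For Fzd4, NotoPs were above MPs at E9.5 by 1.06, whereas NotoPdiff over MPdiff cells gave -1.15. Among the other pathway genes, the corepressor Tle2 differed by -2.70 at E8.5 and 2.09 at E9.5 in trunk notochord over NotoPs, with 18.3 FPKM in E9.5 trunk notochord and 0.808 in E8.5 trunk notochord.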

How the results depend on the processing

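Of 79 recomputed counts, 45 stayed within 1.5 times the reported count and 34 did not. Directions of 696 recomputed member values could hardly reverse and are no evidence of stability. Another pseudocount cannot change the sign of a ratio, and the rescaling factors lay between 1.00 and 1.03. With a pseudocount of 5 FPKM, NotoPs over MPs gave 2 higher and 1 lower, trunk notochord over NotoPs 0 higher and 5 lower, NotoPs at E9.5 over E8.5 0 higher and 0 lower, NotoPdiff over MPdiff 1 higher and 0 lower, NotoPdiff over NMPdiff 2 higher, and MPdiff over NMPdiff 3 higher and 0 lower. With 0.1 FPKM, the NotoP stages gave 7 higher and 3 lower, NotoPdiff over MPdiff 10 and 4, NotoPdiff over NMPdiff 8 and 1, and MPdiff over NMPdiff 7 lower. At 2-fold, NotoPs over MPs gave 8 higher, the NotoP stages 3 and 2, NotoPdiff over MPdiff 7 and 4, NotoPdiff over NMPdiff 8 and 2, and MPdiff over NMPdiff 6 lower. With a mean of at least 1 FPKM required, 0 of 31 members were higher in E9.5 NotoPs (4.12% of 11922 genes), since Dkk2 was not tested. E9.5 alone gave 5 members lower in NotoPs than MPs, and E8.5 alone 7 higher in trunk notochord. Rescaling changed no count. Within 25 kb, 12 members had a T and 20 a Foxa2 peak, and within 100 kb 32 had a T peak and 9 a shared one. A smaller or larger window changes the share of all genes too, so these counts alone show nothing particular to the members. Summits at most 100 bp apart left 2 shared (Wnt5b and Wnt8b). Fewer or more genes pass by the construction of each setting. Low FPKM carry the least weight, most of all in the E8.5 MP and trunk libraries, which have the fewest mapped reads of the embryonic ones. No paired analysis was possible because each group has 1 library and so no replicate numbers to pair. Ratios were taken within each stage.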
